A study of Mus musculus with 96 samples.

Results

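The S100 family genes described here are 10 genes, S100a1, S100a4, S100a6, S100a8, S100a9, S100a10, S100a11, S100a13, S100a14 and S100a16, taken by symbol from the 55487 genes of the count table. They were followed over 96 single cells and within the 48 pairs of sister cells that these make up. All cells are daughters of cultured horizontal basal cells (HBCs), the reserve stem cells of the olfactory epithelium (OE), from wild type mice. Clustering by the authors placed a few of the daughters with other OE cell types. The OE was dissected from adults of 6-8 weeks, 2 days after an injection of methimazole, a drug that strips the epithelium and sets HBCs dividing. HBCs were grown in primary culture on coated dishes, with a change of coating from Tropoelastin to Fibronectin, and the daughter cells of single divisions were picked by mouth pipette with their pairing recorded, so that a pair is named here by its number and a cell by its pair and daughter (4-1 and 4-2). Sequencing followed the G&T-seq protocol on polyadenylated RNA with ERCC spike-in transcripts. The cells share a genotype, a treatment and a culture system, and the labels name no animal or culture for a cell, so they were treated as 1 sample of 1 condition and no p-values are given.

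S100 proteins are small EF-hand proteins that mostly act as dimers. Calcium binding opens a face through which they hold their targets, among them annexins, cytoskeletal proteins and, once secreted, surface receptors. Most S100 genes lie in the epidermal differentiation complex, a stretch of genes used by stratified epithelia, and several are known to be induced in wounded or inflamed surface epithelium.

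Each cell held between 29454150 and 44849003 counts on genes. The HBC markers Trp63, Krt5 and Krt14 were counted in all 96 cells, with medians of 80.2, 2090 and 3672 TPM (a level scaled to transcript length and to the library). None of 16 neutrophil and macrophage markers, 7 fibroblast markers or 4 glia markers reached 10 counts in 10% of cells, and 1 of 14 markers of other OE cells did. Their summed TPM lay between 0 and 35.0, 0 and 18.1, 0 and 23.4, and 0 and 80.1, and Csf3r, Mpo, Elane, Dcn, Sox10 and Kit were at 0 throughout. Cell 4-2 stood apart. It had the lowest TPM of Krt5 (123) and Krt14 (16.2) of all cells, and its sister 4-1 had 1825 and 2924. Cell 4-2 had 38588945 counts on genes and 11654 genes counted, against medians of 36152760.0 and 12865.5 over the cells, while its spike-in share was 4.50% against a median of 3.01% and its mitochondrial share 3.84% against 1.94%. Intraclass correlations and some correlations of sister differences are given with and without this pair.

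All members lie on chromosome 3 (GRCm38), in a proximal group from S100a1 (chr3:90511034-90514392, minus strand) to S100a9 (chr3:90692632-90695721, minus strand) and a distal couple, S100a11 (chr3:93520488-93526287) and S100a10 (chr3:93555080-93564643), both on the plus strand. S100a13 (chr3:90514435-90524581) starts 42 bases from the end of the divergent S100a1, S100a14 and S100a16 follow it, and S100a4 (chr3:90603771-90606045) lies 6836 bases before S100a6 (chr3:90612882-90624181). The distal couple is 2824766 bases further on, and its genes are 28792 bases apart. RefSeq promoter sequences (GRCm38.p6) were matched for 8 of the 10 members. They were searched on both strands for the TATA box (TATAAA), the AP-1 site (TGANTCA) and the GC box (GGGCGG), which occur in 12.4%, 6.75% and 32.7% of the 250-base upstream windows of 32851 promoters. The windows below are the 250 bases upstream of a start after any annotated exon bases were cut off. They run 5′ to 3′ on the strand of the gene, with matches in capitals. The windows of S100a6 and S100a11 were left with 238 and 242 bases. Windows are shown for S100a6 and S100a11, the most abundant members, for S100a4, the most variable of the members counted in every cell, and for S100a9, counted in 2 cells.
S100a6, chr3:90612644-90612881, plus strand: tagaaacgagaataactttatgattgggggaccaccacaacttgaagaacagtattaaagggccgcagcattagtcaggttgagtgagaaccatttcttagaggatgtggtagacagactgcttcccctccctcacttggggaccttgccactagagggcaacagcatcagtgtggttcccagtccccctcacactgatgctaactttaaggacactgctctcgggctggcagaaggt
S100a11, chr3:93520246-93520487, plus strand: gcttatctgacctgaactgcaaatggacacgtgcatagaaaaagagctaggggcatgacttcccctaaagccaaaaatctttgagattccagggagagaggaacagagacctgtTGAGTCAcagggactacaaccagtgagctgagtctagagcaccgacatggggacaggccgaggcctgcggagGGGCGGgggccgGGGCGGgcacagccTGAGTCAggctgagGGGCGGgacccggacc
S100a4, chr3:90603520-90603769, plus strand: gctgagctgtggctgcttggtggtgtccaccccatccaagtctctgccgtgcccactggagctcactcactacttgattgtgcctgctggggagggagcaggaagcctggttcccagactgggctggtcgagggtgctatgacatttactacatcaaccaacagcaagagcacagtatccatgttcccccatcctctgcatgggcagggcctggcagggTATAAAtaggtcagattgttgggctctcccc
S100a9, chr3:90695722-90695971, minus strand: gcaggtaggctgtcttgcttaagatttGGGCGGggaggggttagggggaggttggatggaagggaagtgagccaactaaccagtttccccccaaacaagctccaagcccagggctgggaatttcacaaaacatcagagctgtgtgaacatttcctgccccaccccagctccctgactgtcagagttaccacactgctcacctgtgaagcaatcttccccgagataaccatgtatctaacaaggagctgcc
The bases between the divergent S100a1 and S100a13, shown because both genes start from them, are chr3:90514393-90514434, plus strand: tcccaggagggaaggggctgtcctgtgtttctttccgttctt
S100a11 held 2 AP-1 matches, starting 136 and 38 bases before its RefSeq start, and 3 GC boxes. S100a4 held a TATA box starting 31 bases before its start, and S100a9 held 1 GC box. Matches were also found in members whose windows are not shown. A window of S100a16 held an AP-1 match and a GC box, starting 192 and 30 bases before its RefSeq start (chr3:90541146). The 250 bases upstream of S100a8 held a TATA box, but the part without annotated exon bases did not. None of the 3 motifs was found in the S100a6 window or between the annotated spans of S100a1 and S100a13. The RefSeq start of S100a1 (chr3:90514330) lies inside its annotated span and not at its edge. A match is a run of letters and was not tested as a site.

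Of the 10 members, 6 were counted in every cell: S100a4, S100a6, S100a10, S100a11, S100a14 and S100a16. By comparison, 8.35% of all 55487 genes were. The most abundant were S100a6, S100a11 and S100a10. S100a6 (calcyclin) had a lowest, median and highest TPM of 2030, 4937 and 10926 and ranked 10th of all genes by its median. S100a11, a partner of annexin A1, had 1028, 3628 and 6876 TPM and ranked 19th. S100a10, the light chain of the annexin A2 complex and a member that no longer needs calcium, had 74.3, 1962 and 5667 TPM and ranked 61st. The lowest S100a10 and S100a11 values were both those of cell 4-2. Together the 10 members made up a median of 0.503% of the counts on genes, with a range of 0.185% to 0.909%.

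S100a4 (metastasin), which binds non-muscle myosin and is known from motile cells, spread most among the 6 genes. Its lowest, median and highest TPM were 3.55, 598 and 8374, with a mean of 1172 ± 1321 (SD over 96 cells). S100a16 had 117, 473 and 1926 TPM and S100a14 had 41.6, 138 and 468 TPM. Both are known from epithelia, and their SDs (270 and 84.4 TPM) were smaller than their means (525 and 157 TPM).

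S100a1, best known from muscle, and S100a13, which takes part in the export of signals that lack a leader peptide, were low and absent from part of the cells. S100a1 was counted in 77 of 96 cells (80.2%, exact 95% interval 70.8% to 87.6%), and its TPM had a median of 18.6 and a maximum of 237. S100a13 was counted in 75 cells (78.1%, 68.5% to 85.9%), and its TPM had a median of 13.6 and a maximum of 88.8. These are cells with at least 1 read. S100a1 had 10 or more reads in 64 cells and S100a13 in 71. At 1 read or more, both genes were counted in 58 cells and neither in 2, while 19 cells had counts of S100a1 alone and 17 of S100a13 alone. The highest value of each was in cell 4-2, the cell with the lowest S100a10, S100a11 and S100a14.

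S100a8 and S100a9, the partners in calprotectin and a signature of neutrophils and of inflamed epithelium, were close to absent. S100a8 was counted in 3 cells (3.125%, 0.649% to 8.86%), with 197 counts in 17-1, 84 in 19-2 and 61 in 23-1. S100a9 was counted in 2 cells (2.08%, 0.253% to 7.32%), the sisters 44-1 with 222 counts and 44-2 with 529. The intervals over cells take no account of the pairing, and these 2 cells come from 1 division. No cell had counts of both genes. These 5 cells held at most 1 count over the 16 neutrophil and macrophage markers.

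In the order S100a6, S100a11, S100a10, S100a4, S100a16, S100a14, S100a1, S100a13, each gene was above the next in part of the cells only. TPM of S100a6 was above that of S100a11 in 85 of 96 cells, S100a11 above S100a10 in 90, and S100a10 above S100a4 in 72. S100a4 was above S100a16 in 58 cells and S100a1 above S100a13 in 58, so that these neighbours overlapped widely. S100a16 was above S100a14 in 93 cells and S100a14 above S100a1 in 91. The plot of levels shows these ranges.

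**Figure D1:**
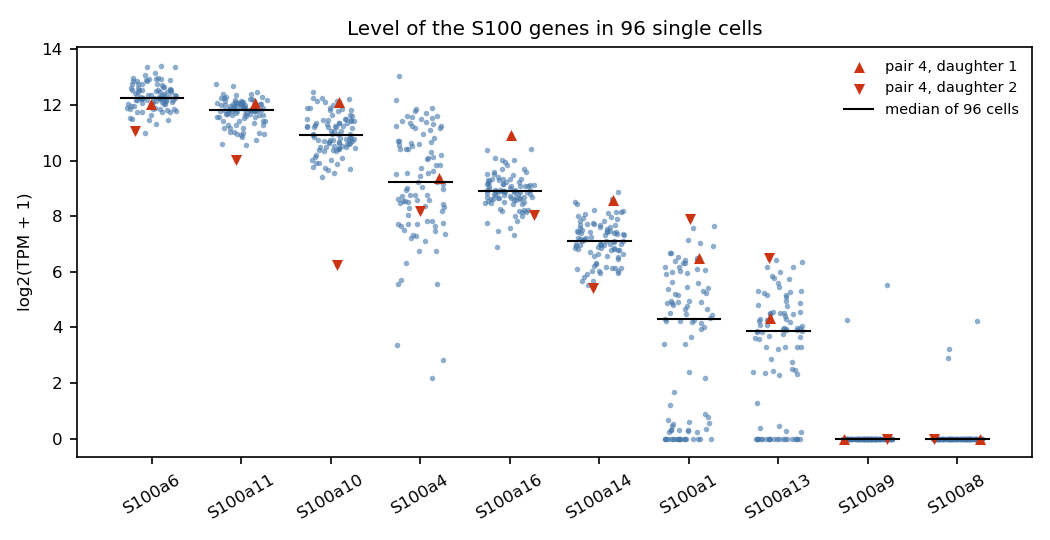
Level of each S100 gene, as log2(TPM + 1), in 96 single cells (points), with the median of the cells as a line and the sisters of pair 4 as red triangles. S100a6, S100a11 and S100a10 lie at the top, S100a4 is spread from 3.55 to 8374 TPM, and S100a8 and S100a9 are at 0 in all but 3 and 2 cells.

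Among S100 genes outside the 10, S100a3, whose span overlaps S100a2 on the same strand, was counted in 82 cells at a median of 28.3 TPM, and S100a7a, a relative of human psoriasin, in 29 cells, with up to 281 TPM. S100z was counted in 9 cells, S100a5 in 5, S100b, the glial member, in 2 and S100g in 1. S100a7l2 was counted in 0 of 96 cells (exact upper bound 3.77%). The fused S100 genes join an S100 domain to a long repeat and belong to cornified epithelium. Each had a median of 0 TPM. Tchh was counted in 29 cells, Crnn in 13, Flg in 5 with at most 1 count, and Hrnr and Tchhl1 in 0.

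Sister cells were compared on counts divided by a spike-in size factor (normalized counts), and a pair was called different when the higher sister had at least 1.5 times the lower. S100a6 differed in 5 of 48 pairs (10.4%, exact 95% interval 3.47% to 22.7%), S100a11 in 8 (16.7%, 7.48% to 30.2%) and S100a10 in 10 (20.8%, 10.5% to 35.0%). Over all genes with 10 counts in 10% of cells, 65.5% of gene and pair combinations were called, but the share falls with level, and among the 140 genes with a median of at least 1000 TPM it was 25.9%. No gene of the 140 had a lower share than S100a6, and S100a11 and S100a10 stood 23rd and 45th from the lowest. Of the 9 spike-in transcripts at that level, which were added alike to every cell and also set the scaling, 7 were called in 0% of pairs and the others in 2.08% and 22.9%. The median ratio of the higher to the lower sister was 1.24 for S100a6, 1.20 for S100a11 and 1.30 for S100a10.

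S100a4 differed in 25 pairs (52.1%, 37.2% to 66.7%), S100a16 in 23 (47.9%, 33.3% to 62.8%) and S100a14 in 22 (45.8%, 31.4% to 60.8%). These are close to the 47.3% of combinations called among genes with medians of 100 to 1000 TPM. The extremes of S100a4 were large. In pair 47 daughter 1 had 69184 normalized counts and daughter 2 had 603, and in pair 3 they had 68347 and 859. Among other called pairs, both sisters of pair 21 lay below the median (9.28 and 45.8 TPM) and both of pair 9 above it (4630 and 2184 TPM).

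S100a1 and S100a13 each differed in 37 pairs (77.1%, 62.7% to 88.0%), against 70.0% of combinations among genes with medians of 10 to 100 TPM. With at least 10 reads asked of the higher sister, the shares were 64.6% for S100a1 and 72.9% for S100a13. The 70.0% was taken without this rule. Both sisters had S100a1 counts in 31 pairs, 1 sister in 15 and neither in 2. For S100a13 these were 29, 17 and 2 pairs. All 3 cells with S100a8 had a sister with 0 counts, whereas the 2 cells with S100a9 were sisters.

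Pair 4 held the largest ratio between sisters for 4 members. Cell 4-1 had 82815 counts of S100a10 and cell 4-2 had 1279, a ratio of 94.2 on normalized counts. The ratio was 14.4 for S100a14 (10943 and 1108 counts), 11.7 for S100a16 (58994 and 7343) and 6.78 for S100a11 (61467 and 13185). S100a6 and S100a4 were also higher in 4-1, by ratios of 3.11 and 3.65. S100a1 and S100a13 went the other way, with 1650 and 384 counts in 4-1 and 4032 and 1595 in 4-2. S100a7a, outside the 10, had 2598 and 4 counts. The same pair split other epithelial programs. Summed wound keratins (Krt6a, Krt6b, Krt16, Krt17) were at 26140 TPM in 4-1, the highest of 96 cells, and at 36.4 TPM in 4-2, the lowest. Squamous differentiation genes were at 38864 TPM, again the highest, and at 2256 TPM in 4-2, which ranked 91st from the lowest against a median of 237 TPM. Airway xenobiotic genes (Adh7, Aqp4, Lypd2, Ces1d, Tmprss11d, Aldh3a1) summed to 1785 TPM in 4-1 and to 11785 TPM in 4-2, the highest sum of all cells. The sum is weighted to the most abundant genes of the list. On the mean of standardized values over the list, 4-2 was not the highest. It had 0.51 and 4-1 had -0.14, against 1.38 in cell 29-2. Cell 4-2 had 0 counts over the markers of other OE cells, of neutrophils and macrophages and of glia, and 4 over those of fibroblasts. The library values of this cell given above moved with these differences, and their part in them was not tested.

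**Figure D2:**
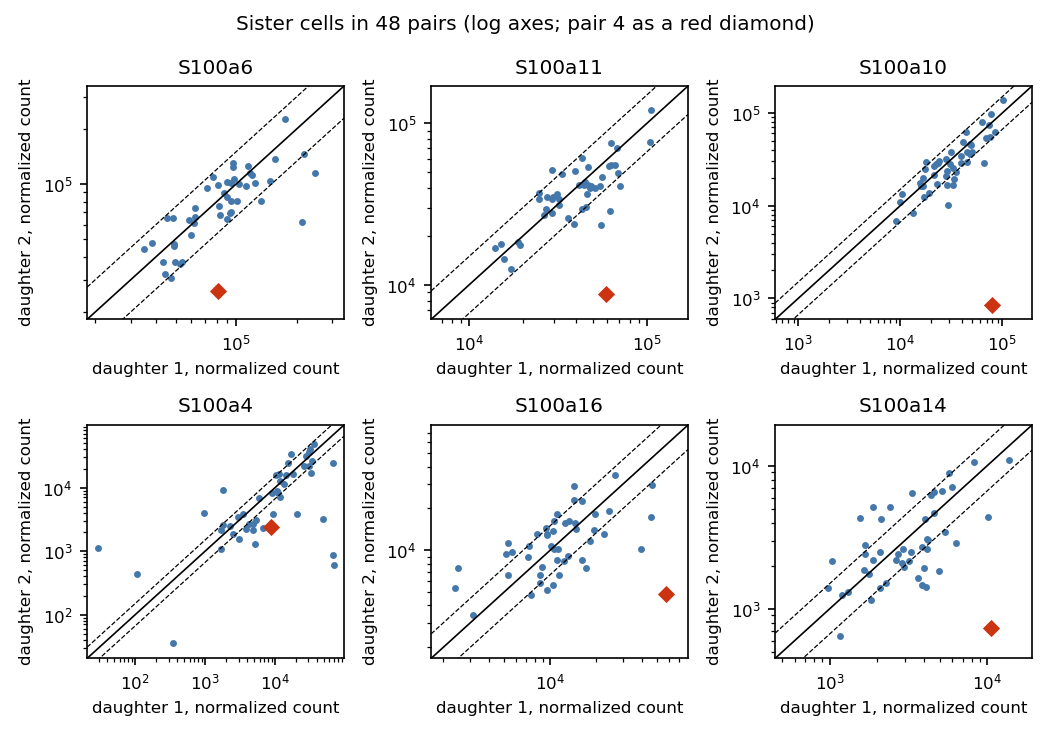
Normalized counts of daughter 2 against daughter 1 in 48 pairs for 6 S100 genes, on log axes, with the line of equality (solid), the 1.5-fold bounds (dashed) and pair 4 as a red diamond. S100a6, S100a11 and S100a10 lie mostly within the bounds and pair 4 lies far outside them, whereas S100a4, S100a16 and S100a14 leave the bounds in 25, 23 and 22 pairs.

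The intraclass correlation, the share of the spread of log2(CPM + 1) that lies between pairs rather than between sisters, was 0.61 for S100a6, 0.58 for S100a4, 0.50 for S100a11, 0.46 for S100a1, 0.39 for S100a14, 0.33 for S100a10 and S100a16, and 0.01 for S100a13. CPM scale counts by the library's total on genes. Of all 14463 genes 4.40% reached 0.5, with a median of 0.11, and 3 of the 8 members measured did. After centring within sets none of the 8 did. S100a4 and S100a6 were then at 0.49, S100a1 at 0.36, S100a11 at 0.33 and S100a14 at 0.28. S100a10 was at 0.21, S100a16 at 0.17 and S100a13 at -0.10. This measure also follows level: 60.7% of the genes with at least 1000 TPM reached 0.5, 15.1% of those with 100 to 1000 TPM and 4.10% of those with 10 to 100 TPM. S100a6 ranked 36th, S100a11 84th and S100a10 122nd of the 140 most abundant genes. Pair 4, which holds the largest sister ratio of S100a10, S100a11, S100a14 and S100a16, was left out after its values were seen. Leaving out the pair in which a gene differs most tends to raise its value. Without pair 4 the value of S100a10 was 0.73, which ranked 58th of all genes and 13th of the 140. The other genes also lost pair 4, whether or not their sisters differed most in it. S100a11 then had 0.63, S100a14 0.52 and S100a16 0.46, whereas S100a6 (0.62), S100a4 (0.58), S100a1 (0.44) and S100a13 (-0.01) moved by less than 0.1. The share of genes at 0.5 without pair 4 was 4.07% over all genes. It was 57.9% for genes with at least 1000 TPM and 13.2% for those with 100 to 1000 TPM. For S100a10, the sisters of pair 46 had 4864 and 5667 TPM, the highest pair mean, and those of pair 19 had 814 and 754 TPM, the lowest.

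**Figure D3:**
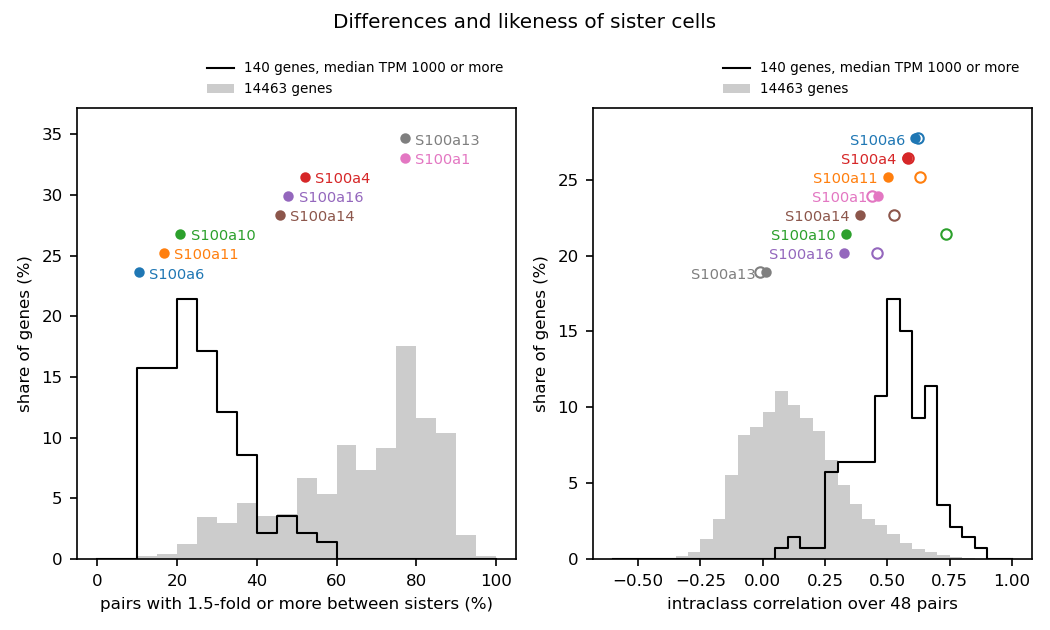
Left, share of pairs with a ratio of at least 1.5 between sisters. Right, intraclass correlation over 48 pairs (filled points) and over the 47 others when pair 4 is left out (open circles). Points are the 8 S100 genes, their height has no scale, grey bars are all 14463 genes and the black line the 140 most abundant. S100a10 moves from 0.33 to 0.73 without pair 4, which was left out after its values were seen.

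Relations among members were described by Spearman's rho on log2(CPM + 1), over 96 cells that share a culture system and, in pairs, a mother cell. The highest values were 0.54 for S100a10 with its neighbour S100a11 and 0.51 for S100a6 with S100a11. S100a4 with S100a6 followed at 0.39, S100a11 with S100a14 at 0.38 and S100a6 with S100a14 at 0.36. S100a4 with S100a10 had -0.02, and S100a1 had values between -0.22 and 0.04 with every other member. The median of the 28 combinations was 0.13, and 22 were above 0. On spike-in normalized counts, which keep differences in RNA content between cells, the median was 0.28 and S100a10 with S100a11 reached 0.77. Leaving out the 2 cells farthest from the median of S100a10 gave 0.51 for S100a10 with S100a11.

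Whether members differ together between sisters was read from the 48 sister differences. S100a6 with S100a10 had a rho of 0.49 there, against 0.19 over cells, and the same sister was higher for both genes in 33 of 48 pairs. S100a10 with S100a11 had 0.48 and the same sister was higher in 28 pairs. S100a11 with S100a14 had 0.39, with the same sister higher in 31 pairs, and S100a4 with S100a6 had 0.35, in 26 pairs. Without pair 4 these 4 rho values were 0.45, 0.45, 0.35 and 0.32. The counts of pairs were not set against those of other gene combinations. S100a1 and S100a13, whose annotated spans lie 42 bases apart, had -0.28 in sister differences and 0.04 over cells. The same sister was higher for both in 21 of 45 pairs with a difference in both.

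**Figure D4:**
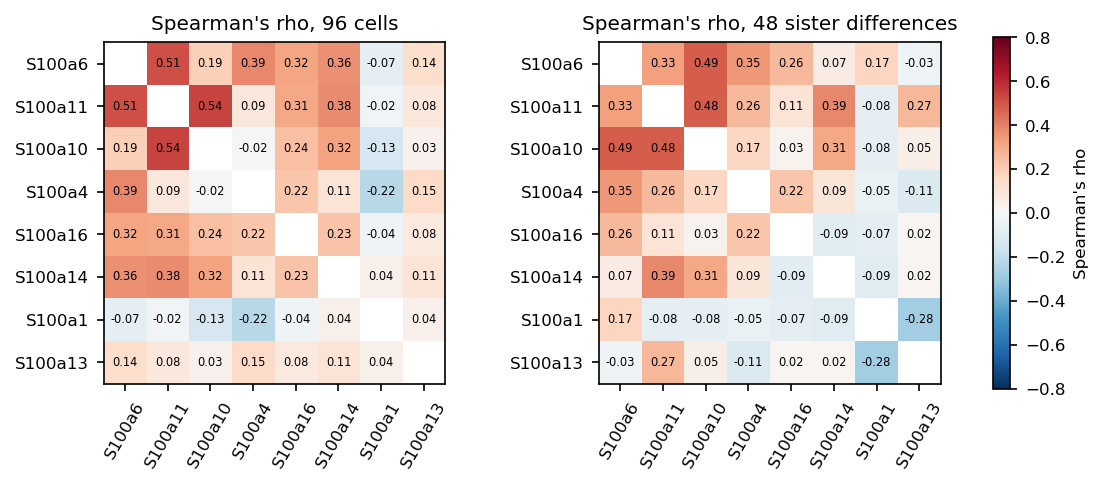
Spearman's rho on log2(CPM + 1) among the 8 S100 genes, over 96 cells (left) and over the differences between daughters in 48 pairs (right). Red is positive and blue negative. S100a10 with S100a11 is high in both, at 0.54 and 0.48, and S100a6 with S100a10 rises from 0.19 to 0.49.

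Of 12 partner and receptor genes, 7 were counted in every cell: Anxa1, Anxa2, Anxa6, Ahnak, Myh9, Cacybp and Bsg. Anxa2, which encodes the annexin that holds S100a10, had 895, 2801 and 10157 TPM (lowest, median and highest) and a rho of 0.61 with S100a10, the third highest of 14463 genes. Over 48 pair means the rho was 0.58, but over sister differences it was 0.02 (-0.045 without pair 4), and the same sister was higher for both in 22 of 48 pairs. On spike-in normalized counts these values were 0.78 over cells and 0.18 over sister differences. Ahnak, a scaffold that binds the same complex, had 0.35 over cells and 0.06 over sister differences, and 0.58 and 0.33 on spike-in normalized counts. S100a11 had 0.25 with Anxa1 and 0.36 with Anxa2. S100a6 had 0.27 with Anxa2. On CPM other partners had values near 0 with their S100 gene, and most of these were higher on spike-in normalized counts. Cacybp had 0.05 with S100a6, and 0.38 on that scale. Anxa11 had 0.03 with S100a6, and 0.42. Myh9 had -0.03 with S100a4, and 0.23, and Anxa6 had -0.01 with S100a1, and 0.02. Of the receptors, Ager was counted in 9 cells and Tlr4 in 56, whereas Bsg was in every cell at a median of 984 TPM. Il1a, a cargo of S100a13, was counted in 6 cells and Fgf1, another, in 35.

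Across gene lists on CPM, the value of largest size was that of S100a10, -0.66 with the 6 airway xenobiotic genes, a list drawn from earlier results of these cells and so no independent choice. It was -0.60 on spike-in normalized counts, -0.73 after centring within the 12 sets of 8 cells that file names give, and -0.65 without the 2 cells farthest from the median of S100a10. All 6 genes had a negative rho with S100a10, from -0.29 (Tmprss11d) to -0.56 (Ces1d). Over sister differences the list had -0.27. The 10 partner and receptor genes past the filter had 0.30 with S100a6, 0.25 with S100a11 and 0.24 with S100a10, and on spike-in normalized counts these were larger, at 0.71, 0.70 and 0.62. Over sister differences they were -0.04, -0.13 and -0.11. S100a11 had -0.36 with the airway list, S100a16 -0.26, and S100a1 0.26. Wound keratins had 0.43 with S100a10 and 0.35 with S100a16. Over sister differences the value for S100a10 was -0.10, with the same sister higher in 19 of 48 pairs. Squamous differentiation genes had 0.39 with S100a14, 0.35 with S100a10 and 0.31 with S100a11. Basal cell genes had 0.35 with S100a10, but -0.10 over sister differences, where the same sister was higher in 17 of 48 pairs. With the other members they had at most 0.23 on CPM, while S100a1 had -0.30 after centring within sets and S100a16 had 0.50 on spike-in normalized counts. Mitosis and G2 genes had -0.27 with S100a11 and with S100a13, although on spike-in normalized counts the value for S100a11 was 0.17. Epithelial inflammation genes had values between -0.07 and 0.16 with the 8 members on CPM, and up to 0.34 (S100a6 and S100a11) on spike-in normalized counts.

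**Figure D5:**
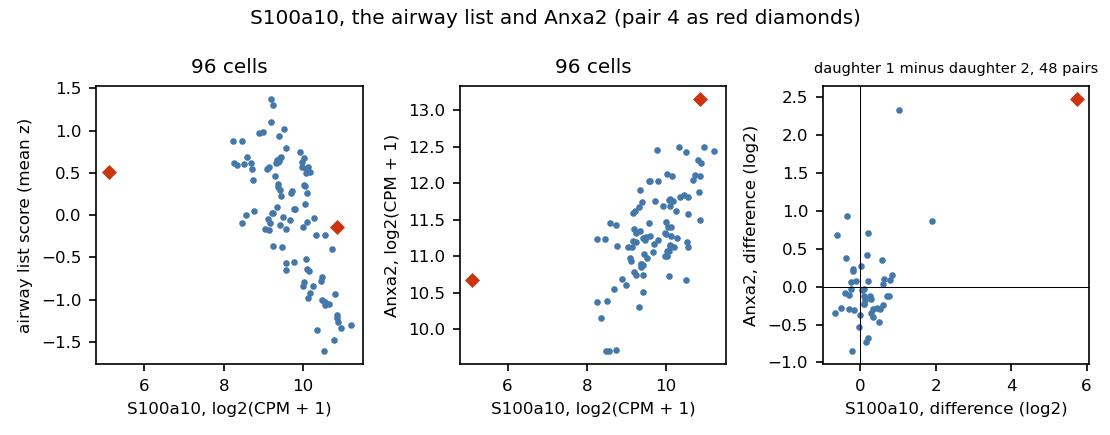
Left and middle, the airway list score (mean of standardized values) and Anxa2 against S100a10, both as log2(CPM + 1), in 96 cells. Right, the difference between daughters for Anxa2 against S100a10 in 48 pairs. Red diamonds are pair 4. The rho values are -0.66, 0.61 and 0.02.

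The 3 highest and 3 lowest correlates of each member were taken from 14463 genes. S100a10 was nearest to Tmsb10, an actin-binding thymosin (0.65), Gm9844 (0.64) and Anxa2, and farthest from Gclm (-0.65), Card19 (-0.63) and Nqo1 (-0.59), which had -0.40, -0.36 and -0.41 on spike-in normalized counts. Gclm and Nqo1 are known targets of the oxidative stress factor NRF2. S100a6 was nearest to Itga6, the integrin of basal cells (0.52), S100a11 and Mboat1 (0.51). It was farthest from Map3k1 (-0.47), Nfib (-0.47) and Emb (-0.43), but on spike-in normalized counts Map3k1 had -0.03 and Nfib 0.14. S100a11 was nearest to Gm12854 (0.68), Fam102b (0.54) and S100a10, and farthest from Mapk11 (-0.53) and Epas1 (-0.51), which had -0.13 and -0.33 on spike-in normalized counts.

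S100a4 was nearest to Cd34, a surface sialomucin of several progenitor cells (0.47), Mif (0.46) and Irf2bp1 (0.46), and farthest from Mgst1 (-0.45), Emb (-0.43) and Mau2 (-0.43), which had -0.33, -0.33 and -0.23 on spike-in normalized counts. Cd34 ranged from 0.243 to 571 TPM, with a median of 58.8. With S100a4 it had 0.53 over pair means and 0.22 over sister differences. S100a14 was nearest to Gm9817 (0.56), the heat shock gene Hspb1 (0.55) and Hsp25-ps1 (0.54), and farthest from Slc1a3 (-0.43), Fbl (-0.41) and Gm11223 (-0.41), which had -0.24, -0.06 and -0.17 on spike-in normalized counts. S100a16 was nearest to Il17rc (0.43), the hemidesmosome collagen Col17a1 (0.43) and Itga6 (0.40). It was farthest from Sod1 (-0.46), Emb (-0.39) and mt-Atp8 (-0.38), and on spike-in normalized counts Sod1 had 0.065 and mt-Atp8 0.30. The highest values of S100a1 and S100a13 were lower: Oxr1 (0.39), Grtp1 (0.35) and Ehf (0.35) for S100a1, and Pacsin3 (0.39), Rnh1 (0.39) and Tmem154 (0.35) for S100a13. Their lowest were Parp16 (-0.38), Hist1h2br (-0.37) and Gm44981 (-0.37), and Rsl24d1 (-0.41), Gm9800 (-0.39) and Gm26202 (-0.39).

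Some of these neighbours are gene copies. Of the 31-base words of Gm12854 transcripts, 84.6% occur in S100a11, and 73.8% of those of Gm9844 occur in Tmsb10 and 89.8% of those of Hsp25-ps1 in Hspb1, so that reads could be shared and these relations are uncertain. Gm12854 had a median of 309 counts against 41030.5 of S100a11. Of the words of S100a11 itself, 48.9% occur in other genes, and 49.2% of those of S100a4 occur in Gm42674, which overlaps its exons on the same strand and was counted in 2 cells. The other members shared at most 0.424% of theirs. The libraries do not keep strand, which leaves reads of S100a1 and S100a13 that run past the ends of these genes uncertain.

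Depth moved weakly with the members. Their rho with the total of counts on genes lay between -0.22 and 0.18, and with the spike-in share of counts between -0.24 and 0.14. The sets of 8 cells held 25.5% of the spread of S100a11, 24.0% of that of S100a6 and 10.4% to 18.5% of the others, against a median of 13.5% over all genes. Their part in the relations was not tested beyond the values centred within sets.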

How the data were processed

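The authors trimmed reads with Trimmomatic 0.39, aligned them to GRCm38 with STAR 2.7.11a and estimated genes with StringTie 2.2.1, as their processing notes name the tools. The deposited files hold a table of raw counts per gene for 96 cells and, for each cell, StringTie levels, of which the TPM were used. The libraries were amplified without molecular identifiers and without strand. The intervals are for a share of cells or pairs and do not cover error of reads or amplification. A size factor per cell (0.387 to 1.93) was set from ERCC ratios, using the 22 of 92 transcripts that had counts in all cells. A filter of 10 counts in 10% of cells kept 14463 genes (including 8 of the 10 members, not S100a8 and S100a9) for comparisons over genes. A pair with 0 in both sisters was not called. Correlations used CPM over genes without ERCC and a pseudocount of 1. Sister differences were entered in both orders. List scores averaged standardized values over genes past the filter, with at least 3 such genes. Intervals are exact (Clopper-Pearson, 95%). Whether the 12 sets of 8 cells were handled together is not stated. Cells are not replicates, so no test was run. The members and lists were chosen with earlier results of these data known. Named genes are the members, the genes of the lists, and the 3 highest and 3 lowest correlates of each member, 1 of which is not reported here. The summaries of pair 4 were added after its values were seen. Overlaps and shared words were taken from GENCODE M21 (GRCm38). Python 3.11.15, scipy 1.17.1, DESeq2 1.42.0 and edgeR 4.0.16 (size factors only, as alternatives) were used, and the measures were tested on simulated data.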

Additional observations from a re-analysis of the deposited data

How the results depend on the processing

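Counts of 10 or more reads, or a TPM of at least 1, also found 6 members in every cell. The median share of different pairs over the 8 members past the filter was 46.9%, and 21.9% with a cutoff of 2. It lay between 40.6% and 46.9% under 5 other scalings, the 10-read minimum and without pair 46 or pair 4. The share over all genes was 35.5% when genes with a single read in 1 cell entered. The median intraclass correlation was 0.43, and it was 0.31 after centring within sets, which also removes differences between the pairs of a set, and 0.55 without pair 4, a choice made after seeing the data. The median of the 28 correlations was 0.13, and 0.28 on spike-in normalized counts. On spike-in normalized counts 3 correlations with a size of 0.3 or more turned their sign: S100a6 with Nfib (0.14), S100a16 with Sod1 (0.065) and S100a16 with mt-Atp8 (0.30). Of 550 alternative values for single genes, combinations and the share over all genes, 414 stayed within their interval or within 0.1 of the correlation, and most of the others were those on spike-in normalized counts, which keep RNA content. Sister cells were compared within pairs throughout. No paired test between groups was possible, because these are 48 divisions of 1 group. Leaving out replicates does not apply to 96 cells of 1 group. The absence of replicates limits every result to these cells.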
